A study of Mus musculus with 3 samples.

Results

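The 8 complement genes described here, C1qa, C1qb, C1qc, C3, C4b, Cfb, Cfp and Serping1, were chosen by symbol among the 55536 annotated mouse genes of the deposited tables. All 8 were found. They were measured in RNA from the chromatin fraction of mouse bone-marrow-derived macrophages (BMDM), primary phagocytes of C57BL/6J mice that had been stimulated with lipid A at 100 ng/ml for 30 min. Lipid A is the part of bacterial endotoxin that engages the receptor TLR4. Ribosomal RNA was depleted before sequencing, so RNA without a poly(A) tail was kept, and RNA still being transcribed is part of this fraction. There was 1 group of 3 libraries, called libraries 1, 2 and 3 after their biological replicate numbers. They were made from 1 µg, 250 ng and 500 ng of RNA. All 3 carry the same donor record, so the spread given below is the spread between these libraries, which may be partly technical. Age and sex of the mice are not given in the labels. No unstimulated library was analysed here, so the values are levels after stimulation and say nothing of induction.

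Complement is a set of blood and tissue proteins that tag microbes and dying cells. In the classical pathway, C1q binds antibody or a target surface and activates the proteases C1r and C1s, which cleave C4 and C2. In the alternative pathway, C3 turns over spontaneously, factor B supplies the protease of the C3-cleaving complex, and properdin holds that complex together. The liver makes most plasma complement, whereas macrophages are a known source of C1q and properdin.

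In these libraries properdin (Cfp), the C1q chains C1qb and C1qc, and C3 were the members with the most RNA. C1qa was lower, C4b and Cfb were near the limit of counting, and Serping1 had no reads. Genes with 10 or more expected counts (reads that the authors' estimate assigned to the gene), averaged over the 3 libraries, were taken as detected. By that rule 6 of the 8 members were detected, against 49.9% of all 22028 annotated protein-coding genes (10983 genes). Cfb and Serping1 were not. The median over the 8 members of the mean TPM (a level corrected for transcript length and scaled to a fixed total per library) was 9.74, against 4.98 for the detected protein-coding genes and 0.307 for all protein-coding genes. The 8 genes made up 0.0306% of the expected counts of library 1, 0.0206% of library 2 and 0.0156% of library 3. Library 1 had the largest share, and C3 supplied the larger part of its reads.

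**Figure D1:**
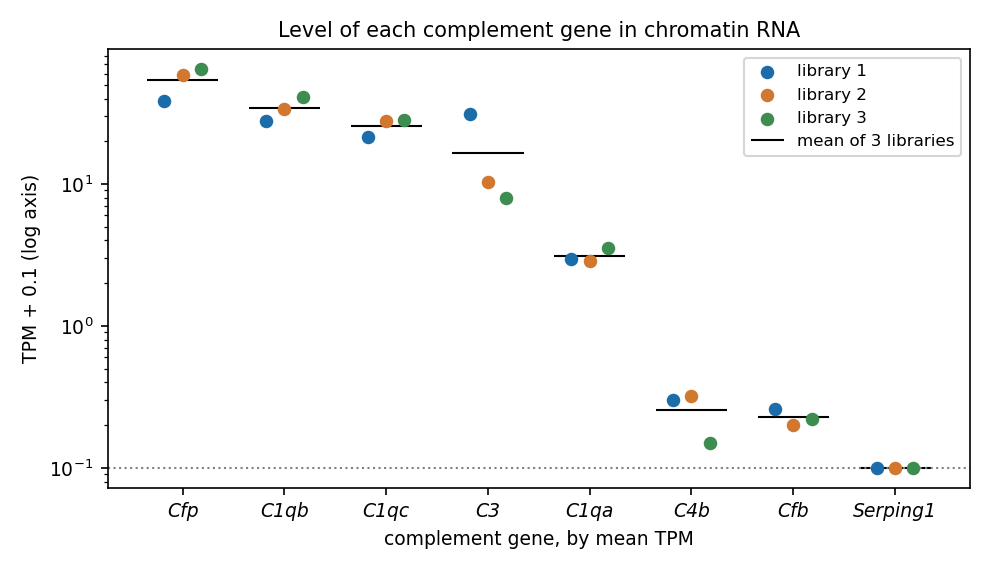
TPM + 0.1 on a log axis for each of the 8 complement genes, with 1 point per library and a line at the mean of the 3 libraries; the dotted line is a TPM of 0. The points of Cfp, C1qb, C1qc and C1qa lie closer together than those of C3, which is highest in library 1 (31.1 TPM against 10.3 and 7.92), and Serping1 lies on the dotted line in all 3.

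The libraries had 16301150, 17033725 and 16205704 expected counts on annotated genes, so 3 counts, the upper 95% limit for a count of 0, equalled 0.184, 0.176 and 0.185 CPM, counts scaled to library size. Such limits cover counting error only. Genes under 300 nt held 72.8%, 66.3% and 56.7% of all TPM in libraries 1 to 3. TPM was therefore used to set genes side by side within a library, and CPM scaled by TMM, a factor computed over all genes, to follow 1 gene between libraries. All 8 markers of macrophages were detected, led by Csf1r (177, 174 and 256 TPM) and Lyz2 (123, 107 and 179 TPM). No marker was detected among 8 for neutrophils, 7 for B cells and 7 for T and NK cells, of which 2, 3 and 3 passed in a second quantification that the authors deposited for the same libraries. The dendritic and mast cell lists each had 2 of 6 markers detected, at no more than 0.99 TPM in any library, and Mcpt4, Tpsb2 and Fcer1a were at 0. Of 7 stromal markers 3 were detected, with summed counts of 9, 92 and 84. In the second quantification 5 dendritic, 3 mast cell and 5 stromal markers passed. Of 6 hepatocyte markers Trf alone was detected, and Alb, Apoa1, Fgb and Cyp3a11 were at 0 in every library. In bulk RNA, fewer cells that express a gene and less RNA per cell cannot be told apart.

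C1qa, C1qb and C1qc encode the A, B and C chains of C1q, which assemble together in each molecule. The genes lie in a row on the minus strand of chromosome 4 (mm10), in the order C1qa (ENSMUSG00000036887.5, chr4:136895917-136898803), C1qc (ENSMUSG00000036896.5, chr4:136889804-136893065) and C1qb (ENSMUSG00000036905.8, chr4:136880129-136886187) along the direction of transcription. The gaps between them are 2851 and 3616 bp, and each coding model has 3 exons. C1qb was at 27.8, 33.4 and 40.8 TPM in libraries 1 to 3, from 660, 697 and 563 expected counts. C1qc was at 21.2, 27.7 and 28.0 TPM, from 493, 557 and 379 counts. C1qa was at 2.85, 2.79 and 3.46 TPM, from 64, 55 and 45 counts. C1qa thus stood apart from its neighbours in every library, and the ranges of C1qa and C1qc do not overlap.

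The ratio of C1qb to C1qa in TPM was 9.75, 12.0 and 11.8 (11.2 ± 1.23, SD, n = 3), and the ratio of C1qc to C1qa was 8.48 ± 1.29 (SD, n = 3). The unequal level was also present in the authors' second quantification of the same libraries, where C1qb exceeded C1qa 13.4, 15.6 and 16.8 times. There C1qc exceeded C1qa 5.83, 6.02 and 6.24 times, less than in the first. The TPM of C1qc includes a mostly intronic noncoding model, described below, whereas C1qa and C1qb each have 1 model, which is coding. The size of the ratio of C1qc to C1qa thus rests on the quantification and on that model. Without the length correction, C1qb held 10.3, 12.7 and 12.5 times the expected counts of C1qa, and the coding models are of like length (1088 and 1040 nt). None of the 75-nt stretches in the coding models of C1qa, C1qb and C1qc occurred in a transcript of another gene. C1qb and C1qc were closer to each other: the ratio was 1.31, 1.21 and 1.46 in the first quantification but 2.31, 2.59 and 2.69 in the second, so its size rests on the quantification.

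Among the 10983 detected protein-coding genes, C1qb stood at the 89th percentile of TPM in libraries 1 and 2 (89.1 and 89.4) and at the 87.5 percentile in library 3. C1qc stood at the 85.4, 86.9 and 81.2 percentiles. C1qa was below the middle of these genes in all 3 libraries, at the 45.4, 39.9 and 33.8 percentiles. The genes that flank the cluster had few or no reads: Epha8, a receptor tyrosine kinase gene 30615 bp upstream of C1qa, had 0 counts in all 3 libraries, and Ephb2, another 44140 bp beyond C1qb, had 0, 3 and 0.

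**Figure D2:**
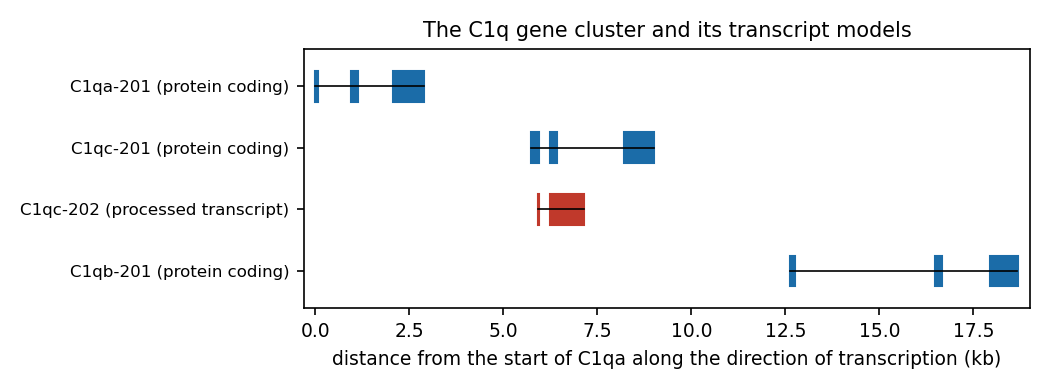
Exons (boxes) and introns (lines) of the coding models of C1qa, C1qc and C1qb and of the noncoding model C1qc-202, to scale, against distance in kb from the start of C1qa along the direction of transcription. The second exon of C1qc-202 (red) runs on into the long intron of C1qc-201.

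C1qc differed from its neighbours in having a second transcript model, C1qc-202, annotated as a processed transcript without a coding frame. It is 946 nt long with 2 exons, and 728 nt of it (77.0%) lie inside an intron of the coding model C1qc-201. The models part at the end of the second exon, at chr4:136892379 on the minus strand (mm10). The sequences are shown because they give the letters of both models at this boundary, 1 of the places where the models differ. Lower case marks the last 30 bases of the shared exon, and capitals mark what follows: the intron, which opens at the splice donor, or the first bases of the next exon.
C1qc-202, exon into intron: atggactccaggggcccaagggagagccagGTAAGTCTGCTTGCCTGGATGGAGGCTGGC
C1qc-201, spliced: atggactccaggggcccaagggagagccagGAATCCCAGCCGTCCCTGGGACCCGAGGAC
C1qc-202 held 52.2%, 56.7% and 50.5% of the abundance of C1qc in libraries 1 to 3 (53.2% ± 3.21, SD, n = 3), from 221, 273 and 163 expected counts. In the second quantification the shares were 47.6%, 53.6% and 45.9%. The deposited tables hold no junction reads, so whether these reads come from C1qc-202 or from C1qc RNA not yet spliced cannot be told apart. Such a share was common in this fraction: among 8986 detected protein-coding genes with coding and noncoding models, the median share on noncoding models was 44.9% (quartiles 24.5% and 63.6%), and 38.6% of them were at or above C1qc.

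**Figure D3:**
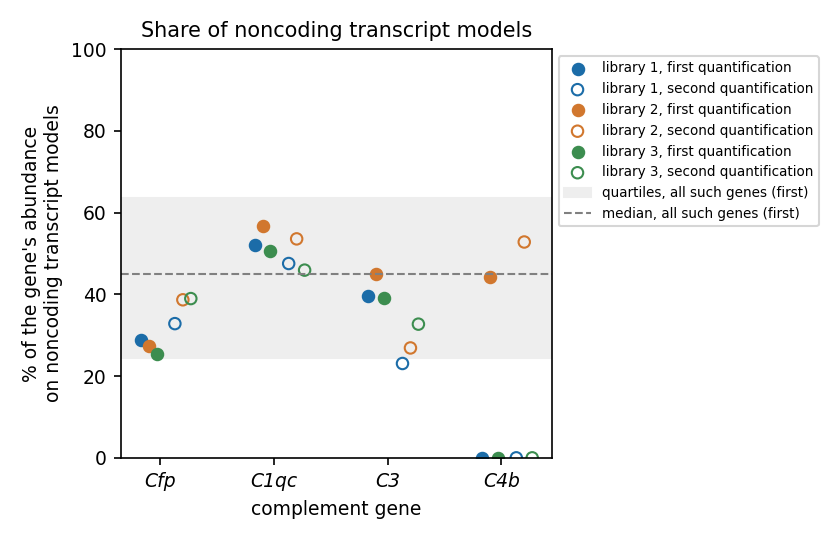
Percent of each gene's abundance on noncoding transcript models, 1 point per library, filled for the first quantification and open for the second; the band gives the quartiles and the dashed line the median of 8986 detected genes in the first. C1qc lies above the dashed line in all 3 libraries of the first quantification, and for C4b a single library holds the whole share.

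Between libraries the C1q chains had narrower ranges than C3. The TMM-scaled log2 CPM of C1qb was 5.42, 5.42 and 4.97, that of C1qc 5.002, 5.10 and 4.40, and that of C1qa 2.07, 1.77 and 1.35. On this scale all 3 chains were lowest in library 3, whereas by TPM all 3 were highest there. Their ranges over the libraries were 0.45, 0.69 and 0.72 on the log2 scale, against a median of 0.50 for the detected protein-coding genes. In edgeR's quasi-likelihood test of spread between libraries, with Benjamini-Hochberg adjustment over 13309 genes, each chain had an adjusted p of 0.992. A p that misses the threshold does not show that a gene was stable. The genes closest to the mean pattern of the 3 chains over the 3 libraries were Plxnd1, Nab1, Nf1, Ppfibp2 and Stra6l, at root mean square differences of 0.0026 to 0.0082 in centred log2 CPM. With 3 libraries this likeness is weak as a measure, since between 226 and 607 of 10980 genes lay as close to that mean as the chains themselves did.

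RefSeq promoter sequences (GRCm38.p6, the patch release of the mm10 assembly) were matched for 4 of the 8 members, C1qb, C1qc, C3 and Cfp. The windows searched ran from 250 bases before to 30 bases after the RefSeq start, on both strands, in 32851 promoters. The motifs were AGGAAG, the core of sites of the macrophage factor PU.1 (in 32.9% of promoters), TATAAA (13.1%), TTGCNNAA for C/EBP factors (10.4%), TGANTCA for AP-1 (7.46%), GGGNNNNNCC as a loose form of the NF-kB site (48.9%) and GAAANNGAAA for interferon response factors (3.28%). Overlapping matches were all kept, and the palindromic forms match on both strands. A match describes letters only. The windows of the C1q genes are shown because C1qb and C1qc lie in 1 cluster and had similar levels; capitals mark AGGAAG, which reads CTTCCT on the opposite strand, and in C1qb also the pair of overlapping GGGNNNNNCC matches. The C1qb window is chr4:136886171-136886450 and the C1qc stretch chr4:136893036-136893164, both minus strand.
C1qb: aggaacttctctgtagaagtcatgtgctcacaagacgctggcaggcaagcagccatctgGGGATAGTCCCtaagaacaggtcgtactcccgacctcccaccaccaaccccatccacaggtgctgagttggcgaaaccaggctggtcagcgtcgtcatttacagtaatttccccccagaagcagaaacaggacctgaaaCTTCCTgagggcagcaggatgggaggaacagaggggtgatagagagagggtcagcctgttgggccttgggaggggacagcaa
C1qc: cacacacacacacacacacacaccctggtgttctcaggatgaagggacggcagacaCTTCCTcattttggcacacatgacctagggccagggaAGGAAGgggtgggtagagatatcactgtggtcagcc
AGGAAG stood at positions -52 to -47 from the RefSeq start of C1qb, on the opposite strand. In C1qc it stood at -194 to -189 on the opposite strand and at -157 to -152 on the gene's own strand. The GENCODE start of C1qc, at chr4:136893065, lies upstream of the RefSeq start, at chr4:136892914, from which its positions are counted. Neither window held a match to the 4 remaining motifs. C1qc also had GGGNNNNNCC matches between -41 and -31, in a stretch not printed here that lies within the first exon of C1qc-201.

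C3 encodes the central component whose cleavage tags targets and starts the later steps. It lies on chromosome 17 (ENSMUSG00000024164.15, chr17:57203970-57228136, minus strand, mm10), and its coding model C3-201 has 41 exons and 5136 nt. C3 had 2627, 661 and 403 expected counts in libraries 1 to 3, or 31.1, 10.3 and 7.92 TPM (16.4 ± 12.8, SD, n = 3). Library 1 was above both others by more than any C1q chain varied, and without it the mean was 9.10 TPM. In TMM-scaled CPM, C3 was 4.20-fold higher in library 1 than in library 2 and 7.58-fold higher than in library 3. In the second quantification its estimated counts were 5518, 2328 and 1397, which on the same scale gave 2.76-fold and 5.23-fold.

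The spread of C3 was wide for these data. Its range of log2 CPM was 2.92, and 35 of the 10983 detected protein-coding genes (0.319%) had a range at least as wide. Among the 6948 of these with 100 to 10000 mean counts there were 5. Yet in edgeR's spread test C3, which ranked 9 of 13309 genes, had an adjusted p of 0.159 and was not called. No gene was: 0 of 13309 passed an adjusted p of 0.05 (0%), with 655 at an unadjusted p under 0.05. DESeq2 marked 96 of 23976 genes as dispersion outliers, and C3 was 1 of them. The edgeR adjusted p of C3 fell to 0.0028 without library 2 and to 0.000156 with no filter on low counts, and over all alternatives it ranged from 0.000156 to 0.982.

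**Figure D4:**
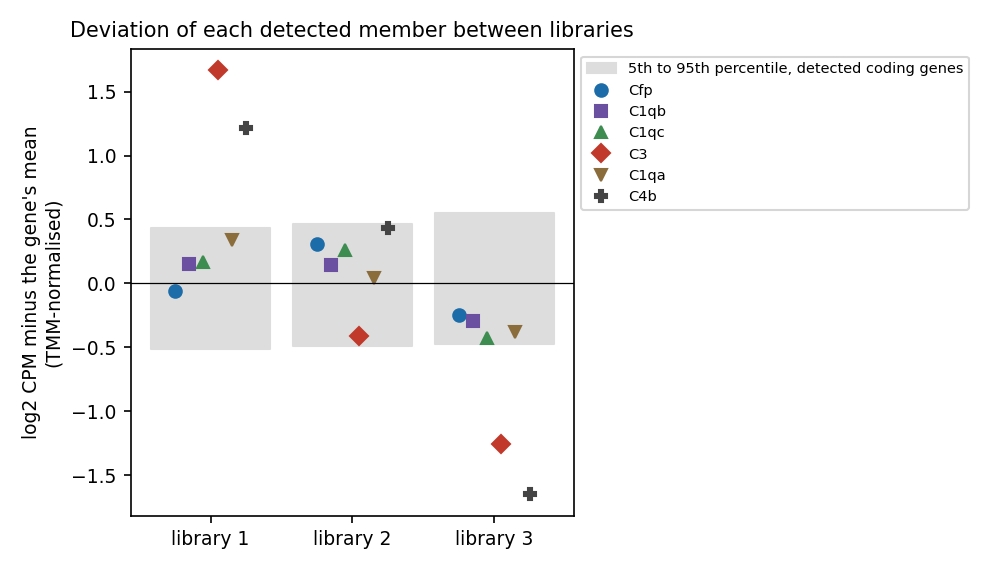
TMM-scaled log2 CPM of each detected member minus the gene's own mean over the 3 libraries, by library, with the 5th to 95th percentile of all detected protein-coding genes as grey bands. C3 stands 1.67 above its mean in library 1 and 1.26 below it in library 3, outside the bands, as does C4b at far lower counts, while Cfp and the C1q chains stay inside.

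Both main models of C3 had their highest expected counts in library 1. The coding model C3-201 had 2474, 611 and 382 expected counts, and C3-202, a processed transcript of 662 nt of which 7 nt are intronic, had 153, 48.4 and 21.4. In these counts, not scaled by TMM, library 1 exceeded library 2 by 4.05-fold on C3-201 and 3.15-fold on C3-202. Nearly all of C3-202 lies in exons of C3-201, so the division of reads is an estimate and these values are not independent. The noncoding model held 39.6%, 45.1% and 39.1% of the abundance of C3 (41.2% ± 3.32, SD, n = 3), a share that 54.9% of the comparable genes reached. In the second quantification its mean share was 27.6%. By expected counts, which are not corrected for length, it was 6.15% ± 1.05 (SD, n = 3).

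Other quantities also differed in library 1. Mitochondrial genes took 0.0963% of the expected counts of library 1, 0.0597% of library 2 and 0.0362% of library 3, in the same order as C3, while the 82 genes of ribosomal proteins held 0.0752%, 0.0848% and 0.0755%. The phiX sequencing control held 1.03% of all counts in library 1, against 0.244% and 0.218%. Library 1 was also made from the most RNA. The part of these differences in the level of C3 was not tested. The summed counts of the marker lists in libraries 1 to 3 were 8, 10 and 17 for neutrophils, 6, 3 and 6 for B cells, 8, 5 and 7 for T and NK cells, 62, 66 and 86 for dendritic cells and 46, 24 and 64 for mast cells. The stromal list, at 9, 92 and 84, and the hepatocyte list, at 1008, 3373 and 2624, were lowest in library 1. Of the hepatocyte counts, Trf alone held 1008, 3372 and 2621, so that sum follows a single gene. The part of other cell types in the level of C3 was not tested. The genes on either side of C3 did not share 1 pattern. Gpr108, 6498 bp upstream, had 290, 354 and 277 counts. Tnfsf14, a TNF family ligand gene 9792 bp downstream, had 27, 14 and 7 counts, highest in library 1 as C3 was. The miRNA gene Mir6978, which lies within C3, was at 0.

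Of the detected protein-coding genes, the closest to C3 over the 3 libraries was Tmem176b, with 29, 9 and 5 counts, at a root mean square difference of 0.15 in log2 CPM. The next were Saa3, an acute-phase protein gene (66, 23 and 21 counts), and mt-Co1, the mitochondrial gene of a cytochrome oxidase subunit (10590, 5562 and 2833 counts), at 0.44 and 0.45. The neighbour Tnfsf14 came next, at 0.46. These were named after their values were seen. The promoter of C3 is shown because C3 had the widest range of log2 CPM among the members, 2.92 against 2.87 for C4b. Capitals mark TATAAA, TTGCNNAA and the GGGNNNNNCC matches in chr17:57228107-57228386 (minus strand, GRCm38.p6).
C3: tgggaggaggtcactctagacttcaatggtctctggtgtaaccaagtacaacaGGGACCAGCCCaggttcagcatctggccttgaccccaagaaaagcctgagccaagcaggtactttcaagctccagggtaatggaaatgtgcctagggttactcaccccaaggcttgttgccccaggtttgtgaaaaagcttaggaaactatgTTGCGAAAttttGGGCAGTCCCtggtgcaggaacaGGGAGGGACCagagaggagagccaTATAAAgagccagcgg
TTGCNNAA stood at -45 to -38, and GGGNNNNNCC at -33 to -24, at -10 to -1 and as an overlapping pair between -197 and -187. TATAAA stood at 15 to 20 after the annotated start. Among the 4 members with a promoter sequence, C3 was the only one with TATAAA or TTGCNNAA in its window.

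C4b encodes C4, the protein that C1s cleaves in the classical pathway. The gene (ENSMUSG00000073418.4, chr17:34728380-34743882, minus strand, mm10) has a coding model of 41 exons and 5379 nt. C4b had 28.2, 16.7 and 4.29 expected counts, or 0.20, 0.22 and 0.05 TPM. These values pass the rule for detection on the strength of libraries 1 and 2. Its range in log2 CPM was 2.87. C4b did not pass the count filter of the main spread test, and with no filter its adjusted p in edgeR was 0.425. Its share on noncoding models was 0%, 44.3% and 0%, where the 44.3% came from 1.23 counts, and no weight can be put on it.

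C4b has a near-identical copy, C4a. The coding models aligned over 5367 positions with 207 mismatches (96.1% identity), the longest identical run was 433 nt, and 23.5% of the 75-nt stretches of C4b-201 occurred in C4a. The division of reads between the genes is therefore uncertain. C4a had 56.8, 69.3 and 37.7 expected counts, or 1.22, 2.04 and 1.72 TPM, above C4b in all 3 libraries. A stretch with 14 mismatches, bases 2731 to 2820 of C4b-201 and within its coding region, is shown as an example of what tells the copies apart, with capitals at the mismatches.
C4b-201: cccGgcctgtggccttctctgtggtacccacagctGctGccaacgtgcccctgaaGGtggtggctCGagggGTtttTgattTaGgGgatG
C4a-207: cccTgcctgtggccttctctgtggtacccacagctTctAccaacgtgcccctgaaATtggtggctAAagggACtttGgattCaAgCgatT
The nearest protein-coding genes to C4b, Tnxb and Cyp21a1, had at most 1 count in any library.

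Cfb encodes factor B, the protease of the alternative pathway's C3-cleaving complex. The gene (ENSMUSG00000090231.10, chr17:34856374-34862518, minus strand, mm10) had 11, 6 and 2 expected counts, or 0.16, 0.10 and 0.12 TPM, and was not detected. Its reads are hard to place. The annotated gene Gm20547 overlaps it on the same strand and shares 81.2% of the 75-nt stretches of Cfb-202, and C2, which encodes the protease of the classical complex, lies 85 bp away. In the second quantification Cfb had 37.0, 34.0 and 38.1 estimated counts and would count as detected. C2 had 2, 3 and 6 expected counts in the first quantification and 256, 205 and 334 in the second. Gm20547 had 0 in the first. The values of Cfb and C2 thus differed between the quantifications, and the cause was not tested. Nelfe, 1 bp beyond the other end of Cfb and on the opposite strand, had 51, 73 and 81 counts.

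Cfp encodes properdin, a positive regulator that stabilises the C3-cleaving complex of the alternative pathway. The gene is on the X chromosome (ENSMUSG00000001128.7, chrX:20925454-20931555, minus strand, mm10), with 9 exons in its coding model Cfp-201 of 1636 nt. Cfp had 1107, 1519 and 1132 expected counts, or 38.4, 58.3 and 64.3 TPM (53.6 ± 13.6, SD, n = 3). It had the highest TPM of the 8 members in each library and ranked 837, 593 and 799 among the 10983 detected protein-coding genes. The step from Cfp to C1qb was 0.64 ± 0.17 on the log2(TPM + 0.1) scale, positive in all 3 libraries. In the second quantification, Cfp was below C1qb in library 1 (a ratio of 0.868) and above it in libraries 2 and 3 (1.18 and 1.26). Cfp was also below C3 in library 1 there (a ratio of 0.860).

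In log2 CPM, Cfp was at 6.17, 6.54 and 5.98, a range of 0.56, with an adjusted p of 0.992 in edgeR's spread test. Library 1, where C3 was highest, was not the highest for Cfp. The noncoding model Cfp-202, of which 100 nt of 401 (24.9%) are intronic, held 28.9%, 27.3% and 25.3% of the abundance, and 71.9% of the comparable genes had at least such a share. By expected counts, which are not corrected for length, Cfp-202 held 4.64% ± 0.79 (SD, n = 3). The flanking genes had lower levels: Syn1, best known from neurons, was at 1.54, 1.91 and 3.90 TPM, and Elk1, a transcription factor gene 1839 bp upstream, at 5.08, 5.19 and 11.9 TPM. The promoter window (chrX:20931526-20931805, minus strand, GRCm38.p6) is shown because Cfp had the highest mean TPM of the members in both quantifications. It held 1 of the 6 motifs searched, GGGNNNNNCC on the opposite strand at -10 to -1, in capitals.
Cfp: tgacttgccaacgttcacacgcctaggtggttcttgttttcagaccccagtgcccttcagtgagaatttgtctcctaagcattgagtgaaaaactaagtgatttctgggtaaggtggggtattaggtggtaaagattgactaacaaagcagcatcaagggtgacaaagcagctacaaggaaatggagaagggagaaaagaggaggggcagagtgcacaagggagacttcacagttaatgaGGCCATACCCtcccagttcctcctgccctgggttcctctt

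Serping1 encodes C1 inhibitor, which inactivates C1r and C1s. The gene (ENSMUSG00000023224.12, chr2:84765387-84775444, minus strand, mm10) had 0 counts in all 3 libraries and 0 in the second quantification. A count of 0 allows up to 0.184, 0.176 and 0.185 CPM. The authors' upper credible bounds were 0.218, 0.248 and 0.366 TPM. Its coding model shares no 75-nt stretch with another gene. The nearest protein-coding gene on one side, Ube2l6, an interferon-inducible ubiquitin-conjugating enzyme gene, had 146, 63 and 92 counts, and Gm19426 on the other side had 1, 0 and 0. RNA of the inhibitor was thus not detectable at this depth.

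By mean TPM the order of the members was Cfp, C1qb, C1qc, C3, C1qa, C4b, Cfb and Serping1. Each of the 7 neighbouring pairs was compared within libraries with an exact permutation test that flips the signs of the libraries (two-sided), whose smallest p with 3 libraries is 0.25, so that no pair could pass 0.05. For 5 pairs the sign was the same in all 3 libraries (exact p = 0.25, Benjamini-Hochberg adjusted 0.35): Cfp over C1qb, C1qb over C1qc by 0.40 ± 0.14, C3 over C1qa by 2.14 ± 1.14, C1qa over C4b by 3.68 ± 0.77, and Cfb over Serping1 by 1.17 ± 0.19 (log2(TPM + 0.1), mean ± SD, n = 3). The order was set by the mean TPM of the same libraries, so these signs are no separate support for it. For the other 2 pairs the sign was not the same in all 3 libraries, and the test cannot tell whether they differ. C1qc and C3 differed by 0.89 ± 1.26 (exact p = 0.5), since C3 was the higher in library 1. C4b and Cfb differed by 0.11 ± 0.62 (exact p = 0.75). For pairs with a member near 0 TPM, the size of the step and its SD rest on the pseudocount. Cfb over Serping1 was 0.17 with a pseudocount of 1 and 3.75 with 0.01. C1qa over C4b was 1.80 and 4.41 with these pseudocounts.

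Of 52 other genes of the complement system, arranged by role, 17 were detected and 19 were at 0 in all 3 libraries. The same rule detected 49.9% of all 22028 annotated protein-coding genes. The median over the 52 of the mean TPM was 0.0417. By this rule, detection was most frequent among receptors and C1q-binding proteins and absent among the lectin, terminal and fluid-phase lists, as the values below show. In the second quantification 31 of the 52 passed the same minimum, against 66.6% of protein-coding genes, so calls of detection near the minimum rest on the quantification.

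Of the 8 receptor genes 7 were detected. C5ar1, the receptor of the inflammatory fragment C5a, was at 34.1, 24.9 and 50.6 TPM. Itgb2, the beta chain of the C3-fragment receptors CR3 and CR4, was at 21.6, 30.1 and 38.6 TPM, and C3ar1, the receptor of C3a, at 13.4, 18.5 and 30.6 TPM. Vsig4, a C3b receptor of resident tissue macrophages, had 5, 2 and 9 counts and was not detected. In the second quantification Vsig4 had 55, 23 and 60 estimated counts and passed, as did all 8 receptor genes. The mean levels of C5ar1, Itgb2 and C3ar1, 20.8 to 36.6 TPM, were near those of C1qc and C1qb (25.6 and 34.0 TPM). Of 6 genes for proteins reported to bind C1q, 5 were detected, led by Lrp1, an endocytic receptor, at 175, 265 and 232 TPM. Calr, calreticulin, was at 22.7, 34.5 and 47.3 TPM, and Cd93 at 17.5, 19.8 and 37.6 TPM. Megf10 had 1, 1 and 0 counts.

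**Figure D5:**
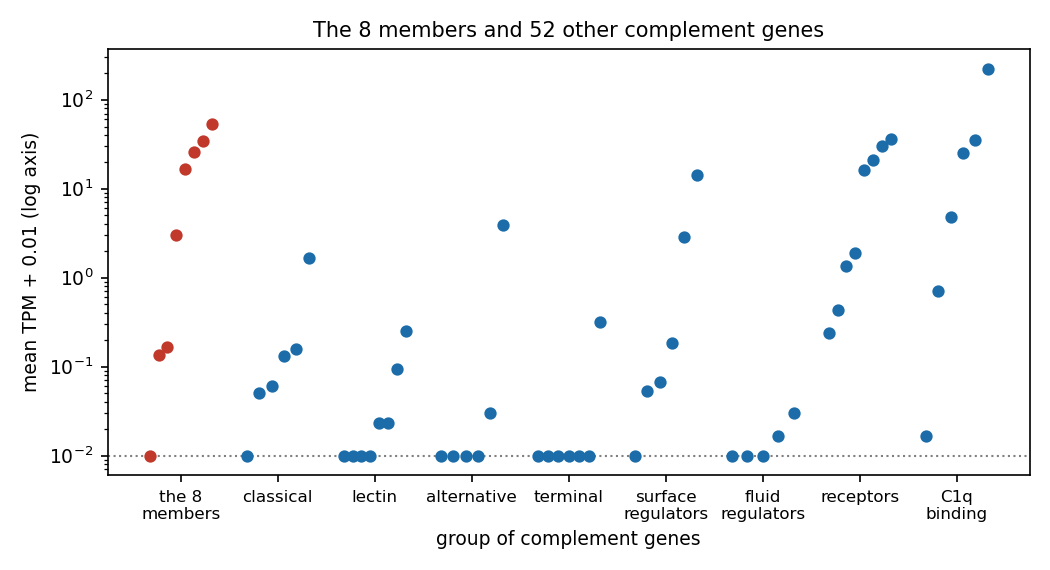
Mean TPM over 3 libraries, + 0.01 on a log axis, for the 8 members (red) and 52 other complement genes by role (blue), sorted within each role; the dotted line is a TPM of 0. Receptors and C1q-binding proteins reach the levels of the members, and 6 of 7 terminal genes lie on the dotted line.

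Partners of the members in the fluid phase were mostly not detected. Of 6 genes for the early classical components, C4a alone passed the minimum, whereas 3 passed it in the second quantification. C1ra, which encodes the first protease that C1q activates, had 8, 9 and 9 counts, or 0.11, 0.13 and 0.20 TPM, just under the minimum, and C2 is given above beside Cfb. C1s1, the gene of the next protease, had 0, 0 and 1 counts. Each C1q chain was at 2.79 TPM or more in every library, whereas no C1r or C1s gene exceeded 0.20 TPM. Among the other alternative pathway genes, Cfd, the gene of factor D, had 0, 1 and 0 counts, and Cfi, factor I, had 0 in every library.

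Of 6 regulators on the cell surface 3 were detected. Cr1l, the rodent gene for Crry, which protects cells from deposited C3, was at 11.4, 9.84 and 21.2 TPM. Cd46 was at 1.68, 2.40 and 4.54 TPM and Cd55 at 0.25, 0.20 and 0.07 TPM. The counts of Cd55 were 17, 10 and 3, a mean of 10 that only just meets the minimum. Cd59a was not detected with 2, 1 and 2 counts, but had 78.9, 71.6 and 105 in the second quantification. None of the 8 lectin pathway genes, the 7 terminal genes and the 5 fluid-phase regulators was detected by the main rule. Fcna, a ficolin gene of the lectin list, had 6, 5 and 6 counts, C8g of the terminal list had 4, 7 and 2, and C6, C7 and C9 were at 0. In the second quantification 3 lectin, 3 terminal and 2 fluid-phase genes passed the minimum. There Fcna had 13, 20 and 19 estimated counts, C8g 29.0, 55.0 and 74, and C6 51, 31 and 22. C7 stayed at 0 there, and C9 had 1, 1 and 2. Clu, clusterin, was at 0, as was Serping1 among the members.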

How the data were processed

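Chromatin-fraction total RNA of 1 group of 3 libraries was analysed. The members and gene lists were chosen with earlier results of these data known. Per the deposited file notes the tables use build mm10 and GENCODE M21. The deposited gene tables give expected counts and TPM per gene, per the file headers, with posterior means and credible bounds of TPM, which are scores of the authors' estimation. The deposited first transcript tables give the percent of a gene's abundance on each transcript, and the second transcript tables hold the authors' estimated counts and TPM of another quantification run on the same libraries. Tools and versions were not given in the sources used here, nor was the strand setting, so reads of overlapping genes on opposite strands are uncertain.

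All 55536 gene identifiers matched the annotation. The replicates share 1 donor record, and p-values measure the spread between these libraries. Spread was tested with edgeR 4.0.16 (R 4.3.3): expected counts rounded to whole numbers, TMM, filterByExpr, an intercept-only quasi-likelihood fit with each gene's deviance set against the trended prior, and Benjamini-Hochberg adjustment at 0.05. The log2 CPM used a prior count of 0.5 and log2 TPM a pseudocount of 0.1. Alternatives were robust empirical Bayes, no filter, size factors of DESeq2 1.42.0 (whose dispersion outliers were also counted), the second quantification, posterior means, TPM rescaled to genes no shorter than 300 nt, pseudocounts of 1 and 0.01, a prior count of 2, detection minimums of 5 and 20, 10 counts in each library, and leaving out each replicate. Transcript shares were summed over models by biotype. Copies were compared by shared 75-nt stretches and alignment in Biopython 1.88. Tables and plots were made with pandas 2.3.3, matplotlib 3.10.9, scipy 1.17.1 and numpy 2.4.6 under Python 3.11.15.

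Named genes were all members; from each complement list the 3 detected genes of highest mean TPM and at most 2 that were not detected; genes overlapping or next to a member; near-identical copies; the 5 genes closest to the C1q mean; and, from each marker list, the 2 highest genes and markers at 0. To keep to the members, not every marker covered by that rule is named with its values. Further genes are marked in the text. The values of 1 listed gene are not reported here.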

Additional observations from a re-analysis of the deposited data

How the results depend on the processing

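No paired analysis was possible because there is 1 group. Of the 56 alternatives for the order of the members' levels, 52 kept the sign. C1qc minus C3 became -0.33 (log2(TPM + 0.1)) with the second quantification. C4b minus Cfb became -0.40 with posterior mean TPM and -1.83 with the second quantification, and ranged from -0.17 to 0.44 when 1 library was left out, the lowest without library 2; the cause was not tested. Members detected ranged from 5 to 7 over all alternatives. Other complement genes detected were 31 with the second quantification and 15 to 20 in the rest. The share on noncoding models became 36.8% for Cfp, 49.0% for C1qc and 27.6% for C3 with the second quantification, and 37.3% for C3 and 64.4% for C4b with posterior means. Genes called in edgeR's spread test at an adjusted p of 0.05 rose from 0 to 117 with no filter, where more genes are tested, and to 7 with the second quantification, and ranged from 0 (without library 3) to 49 (without library 2), with 17 without library 1. With DESeq2 size factors or robust empirical Bayes there were 0. Of the single-member values, 15 of 48 alternatives for TPM and 4 of 54 for log2 CPM moved by more than the spread between libraries. The 15 include moves with TPM rescaled to genes no shorter than 300 nt, where Cfp went from 53.6 to 154.5 TPM. That setting raises every TPM above 0 by its construction, so its moves do not show how firm a level is. The values of C4b and Cfb rest on at most 28.2 counts in a library, and for such genes depth sets the limit.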
